A study of Mus musculus with 12 samples.

Results

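The genotype effect of an optic vesicle deletion of Bmp4 was set against itself in 2 neighbouring tissues of the mouse eye primordium: the change between knockout (KO) and wild type (WT) in the distal optic vesicle, the prospective retina, minus the same change in the surface ectoderm, the prospective lens. All 12 arrays of the series entered this contrast, and 11924 of the 19057 annotated genes had a probe bright enough to be tested. The 4 groups had 3 arrays each: Bmp4 KO optic vesicle, Bmp4 WT optic vesicle, Bmp4 KO surface ectoderm and Bmp4 WT surface ectoderm. All embryos were taken at E10.5 (days of gestation) and were of mixed C57BL6 and FVB background. Tissue was cut from eosin-stained frozen sections of 10 µm by laser microdissection, and 15 ng of total RNA was amplified, given a biotin label and read on Illumina bead arrays. KO marks a Bmp4 deletion made in the optic vesicle, and WT embryos carried Bmp4. The Cre line behind the deletion is not given in the sources used here. Per the series' design notes, RNA from 3 WT and 3 KO embryos was pooled. The labels do not say whether the 3 arrays of a group were separate embryos, so p-values may measure technical spread alone. Every array read both a female-specific and a Y-linked gene (given below), as in RNA pooled from embryos of both sexes.

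BMP4 is a secreted growth factor that the distal optic vesicle makes and that both the vesicle and the ectoderm above it can receive through BMP receptors. In the vesicle, BMP signalling is known for setting dorsal retinal identity, and the vesicle wall later divides into neural retina and pigment epithelium. The ectoderm touching the vesicle thickens into the lens placode, which switches on lens transcription factors and then crystallins, the structural proteins of the lens, while the ectoderm around it becomes epidermis.

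Values are normalised log2 intensities, and a genotype effect is KO minus WT on that scale. The effect difference is the effect in optic vesicle minus the effect in surface ectoderm, so a positive value means a higher KO-to-WT ratio in the vesicle than in the ectoderm. A gene passed where limma's Benjamini-Hochberg adjusted p over the 11924 genes was below 0.05, and every adjusted p below is two-sided and from that limma fit of 12 arrays. A probe is called detected on an array where its detection p was below 0.05; where it was detected on 0 of 3 arrays of a group, the group's value is background, and a fold is given as a lower bound, the brighter group's mean against, on each dim array, the higher of the probe's own signal and the lowest signal among detected probes. Between 45.0% and 46.7% of probes were detected per array, and each value rested on a median of 42 beads. The tissue labels matched defining genes: the ectodermal AP-2 factor Tfap2a averaged 9.45 ± 0.40 in KO and 9.32 ± 0.23 in WT ectoderm, against 4.62 ± 0.32 in KO and 4.39 ± 0.12 in WT vesicle (SD, n = 3 each). The optic vesicle factor Pax2 ran the other way, at 8.49 ± 0.42 in KO and 8.99 ± 0.07 in WT vesicle, against 5.37 ± 1.20 in KO and 4.73 ± 0.65 in WT ectoderm. In bulk tissue, fewer cells of a type and less RNA per cell cannot be told apart.

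The 2 tissues differed in their response at 168 genes, 1.41% of those tested. In 96 of them (0.805% of genes tested) the effect difference was above 0, and in 72 (0.604%) it was below 0. For comparison, 215 genes (1.8%) passed within the vesicle and 593 (4.97%) within the ectoderm. Of the 96 genes above 0, 61 fell and 3 rose in KO ectoderm, while 28 rose and 2 fell in KO vesicle. Of the 72 below 0, 50 rose and 0 fell in KO ectoderm, while 16 fell and 2 rose in KO vesicle. These directions follow in large part from the sign of the effect difference, by which the genes were split. The ectoderm effect was the larger in size for 113 of the 168 genes and the vesicle effect for 55.

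By tissue, 103 of the 168 genes passed in the ectoderm alone, 37 in the vesicle alone, 11 in both and 17 in neither. The effects had opposite signs in 103 of the 168 genes, and in 5437 of all 11924. Choosing genes for a large effect difference favours opposite signs. Of the 70 genes that passed in both tissues, 66 moved the same way, and 59 of these did not pass for the effect difference. In 51 of the 168 genes a group was below background on all 3 arrays, and 90 were detected on all 12 arrays. All 168 kept the sign of the effect difference within each of the 2 array slides. KO and WT arrays of each tissue were spread equally over the slides. Slide 1 held 1 array of each vesicle group and slide 2 held 1 of each ectoderm group. An effect difference within a slide thus rests in part on 1 KO array against 1 WT array. The 168 genes were chosen over these same arrays, so a kept sign was likely and is no independent support. The number that passed dropped to 109, 94 and 107 when WT optic vesicle replicate 1, 2 or 3 was left out.

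**Figure D1:**
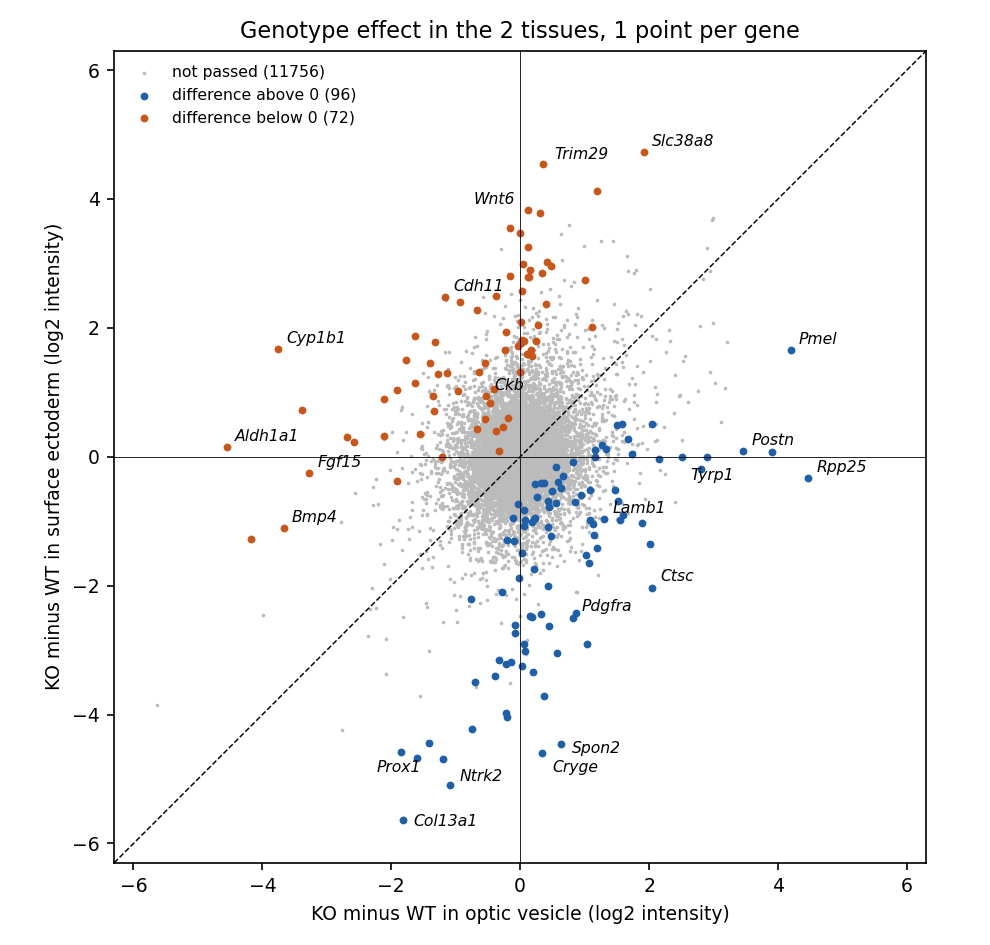
Each point is a gene, with its genotype effect (KO minus WT, log2 intensity) in optic vesicle on the horizontal axis and in surface ectoderm on the vertical axis; on the dashed line the 2 effects are equal. The 96 genes with an effect difference above 0 lie below the line, many of them straight down where the vesicle effect is near 0, and the 72 below 0 lie above it.

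Bmp4 itself fell in KO vesicle and the effect difference was -2.57 (SE 0.56, adjusted p = 0.034). KO vesicles read 4.27, 5.18 and 4.31, against 8.26, 8.30 and 8.22 in WT vesicles. KO ectoderm read 5.66, 4.56 and 4.53, against 5.90, 6.09 and 6.08 in WT ectoderm. The genotypes did not overlap in either tissue, and the probe was detected on 1 of 3 arrays in each KO group. The effect was -3.67 in vesicle (adjusted p = 0.00010) and -1.10 in ectoderm (adjusted p = 0.14). A dimmer second probe gave an effect difference of -2.35 that did not pass (adjusted p = 0.18), with KO ectoderm above WT ectoderm, so the direction of Bmp4 in the ectoderm differed between its probes. The call for Bmp4 held in 3 of the 12 fits that left out 1 array, with an adjusted p of up to 0.098. The position of the probes relative to the deletion is not given in the sources used here, and the probes may not measure the deletion.

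In 4 genes the effect passed in both tissues with opposite signs, and the effect difference passed as well. Cyp1b1, a cytochrome P450 enzyme that can make retinoic acid, had the lowest effect difference of the 168 genes, at -5.42 (SE 0.33, adjusted p = 1.1e-06). It read 5.83, 6.02 and 5.91 in KO vesicles, against 9.70, 9.83 and 9.49 in WT vesicles, a 13.5-fold fall. In the ectoderm it rose 3.18-fold, with 9.67, 9.25 and 9.60 in KO, against 8.14, 7.52 and 7.85 in WT. Cyp1b1 was thus brighter in vesicle than in ectoderm in WT and dimmer in vesicle than in ectoderm in KO, with no overlap between groups in either case. Its effect difference was -5.48 within slide 1 and -5.19 within slide 2.

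Ckb, the brain-type creatine kinase, moved the same way on a smaller scale. It read 11.41, 11.34 and 11.30 in KO vesicles, against 11.80, 11.94 and 11.89 in WT vesicles, and 10.86, 11.04 and 10.73 in KO ectoderm, against 9.81, 10.08 and 9.91 in WT ectoderm. The genotypes did not overlap in either tissue, and the effect difference was -1.47 (SE 0.15, adjusted p = 0.00030). Ctsc, the lysosomal protease cathepsin C, ran in the reverse direction with an effect difference of 4.08 (SE 0.64, adjusted p = 0.0044). It read 8.89, 9.17 and 8.62 in KO vesicles, against 7.37, 6.45 and 6.70 in WT vesicles, and 5.84, 7.06 and 7.67 in KO ectoderm, against 9.70, 8.58 and 8.39 in WT ectoderm. Dimmer Ctsc probes gave 1.79 (adjusted p = 0.11) and 1.54 (adjusted p = 0.13) without passing. They had the same signs and passed in neither tissue. Lamb1, the laminin beta 1 chain of basement membranes, rose by 1.30 in vesicle and fell by 0.96 in ectoderm, an effect difference of 2.27 (SE 0.31, adjusted p = 0.0015). After these moves the KO tissues were nearly level in Lamb1, at 9.41 ± 0.18 in KO vesicle and 9.42 ± 0.30 in KO ectoderm, where WT tissues stood at 8.11 ± 0.44 and 10.38 ± 0.14 (SD, n = 3 each).

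**Figure D2:**
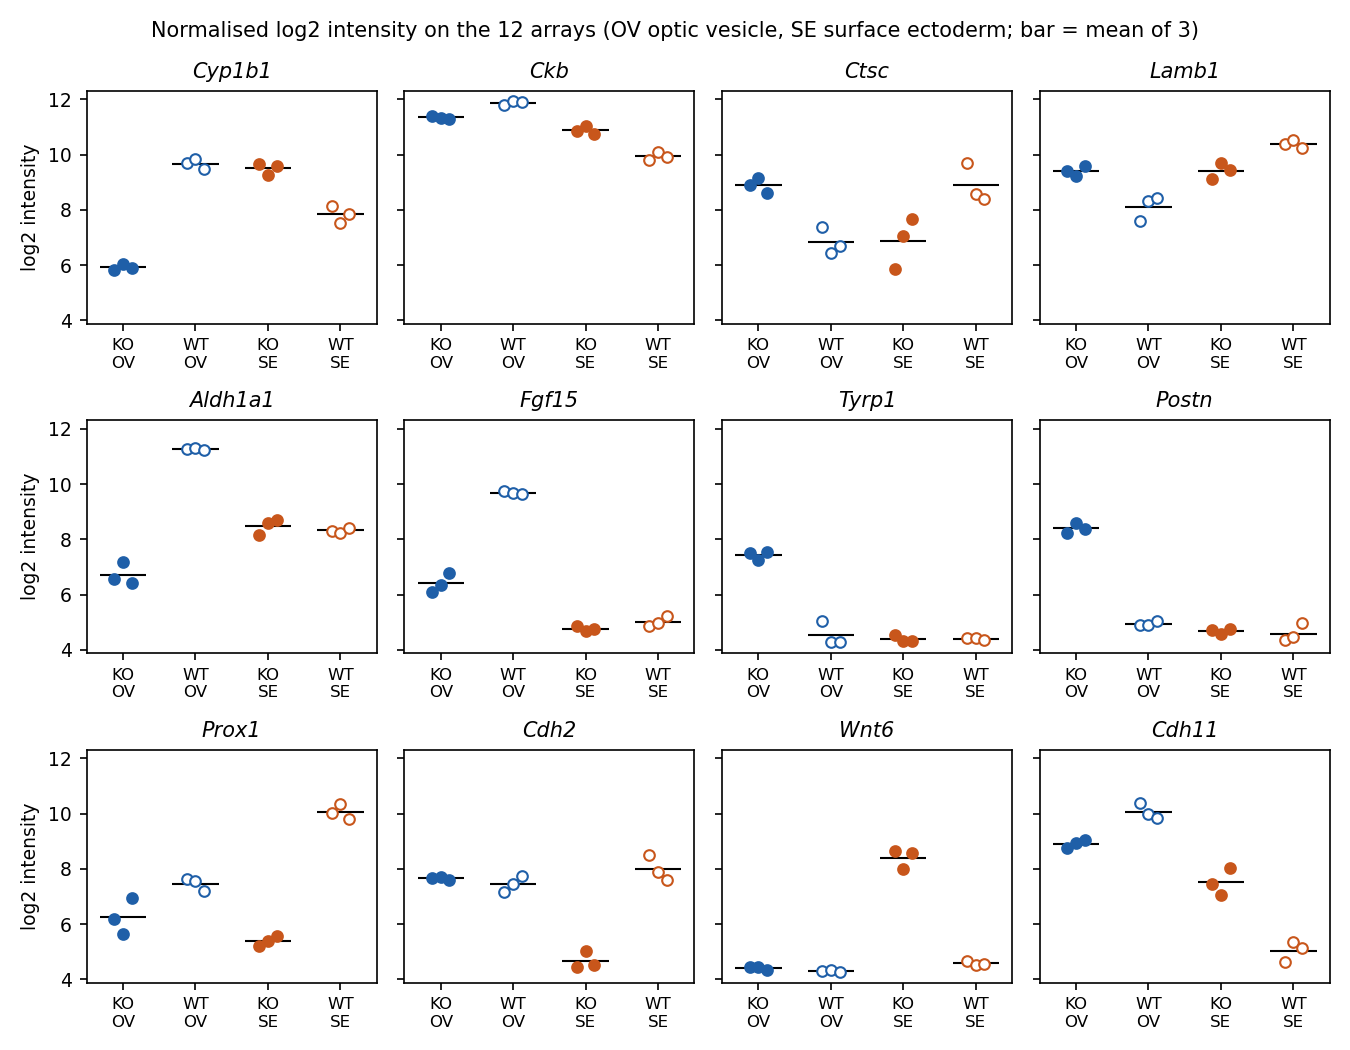
Normalised log2 intensity of 12 genes on each of the 12 arrays; filled circles are KO, open circles WT, blue optic vesicle (OV), orange surface ectoderm (SE), and bars are means of 3 arrays. The top row holds the 4 genes with opposite effects in the 2 tissues, Aldh1a1 to Postn differ between genotypes in the vesicle, and in the bottom row the genotypes separate most in the ectoderm.

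Aldh1a1 and Tbx3, genes of the dorsal retina, fell in the vesicle and did not pass in the ectoderm. Aldh1a1, which makes retinoic acid in the dorsal retina, read 6.55, 7.19 and 6.41 in KO vesicles, against 11.27, 11.31 and 11.22 in WT vesicles. In ectoderm it read 8.14, 8.57 and 8.71 in KO, against 8.32, 8.24 and 8.41 in WT, so the genotypes overlapped there. The effect difference was -4.70 (SE 0.32, adjusted p = 3.0e-06), with -4.23 within slide 1 and -4.95 within slide 2. Aldh1a7, a close copy of Aldh1a1 on the same chromosome that was named here after its values were seen, had an effect difference of -2.99 (adjusted p = 0.0010), and the probes of these copies may read both genes. Tbx3, a T-box factor of the dorsal retina and a known BMP target, averaged 4.75 ± 0.35 in KO and 8.93 ± 0.13 in WT vesicle, against 4.39 ± 0.11 in KO and 5.67 ± 0.65 in WT ectoderm (SD, n = 3 each). Its effect difference was -2.91 (SE 0.54, adjusted p = 0.014), and of its other probes 1 gave -3.23 (adjusted p = 0.00078) and 1 gave -1.21 without passing (adjusted p = 0.12). Adjusted p-values of other probes are over the 20531 kept probes that had 1 gene symbol.

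Of 13 measured retinoic acid genes, 3 passed below 0, 1 passed above 0 and 9 did not pass, with a median effect difference of -0.36 beside -0.04 over all genes. Besides Aldh1a1 and Cyp1b1, the cellular retinoic acid binding protein gene Crabp1 passed, at -2.56 (SE 0.46, adjusted p = 0.011). Crabp1 read 5.58, 6.27 and 5.91 in KO and 7.55, 7.37 and 6.66 in WT vesicles, and 8.97, 8.79 and 9.25 in KO and 7.41, 7.79 and 7.95 in WT ectoderm. It rose by 1.29 in the ectoderm, and -1.27 in the vesicle did not pass. The gene above 0 was Stra6, the vitamin A receptor, outside the naming rule and singled out after its values were seen, at 2.49 (SE 0.48, adjusted p = 0.017). Stra6 lost its call without KO optic vesicle replicate 2 or 3 or WT optic vesicle replicate 2 (adjusted p of up to 0.053). Aldh1a3, which makes retinoic acid in the ventral retina, rose by 0.85 in the vesicle, and its effect difference of 0.60 did not pass, with an adjusted p of 0.071.

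Among the 8 genes of the dorsal retina list, 2 passed below 0 (Aldh1a1 and Tbx3), 0 above 0 and 6 did not pass; the median effect difference was -0.62, with a median effect of -1.12 in vesicle and -0.09 in ectoderm. Efnb2, a dorsal ephrin, fell in both tissues, by 2.18 in vesicle and by 1.35 in ectoderm, and the difference of -0.83 did not pass (adjusted p = 0.26). Tbx5, another dorsal T-box factor, was at or near background in all groups, and its effect difference of -0.90 did not pass (adjusted p = 0.32). Among 6 ventral retina and optic stalk genes 1 passed, Foxd1, a forkhead factor of the temporal retina. Foxd1 read 10.67 ± 0.15 in KO and 10.27 ± 0.02 in WT vesicle, against 9.01 ± 0.33 in KO and 6.63 ± 0.58 in WT ectoderm (SD, n = 3 each), an effect difference of -1.98 (SE 0.36, adjusted p = 0.011).

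Among BMP targets, Tbx3 alone passed for the effect difference. Of 11 measured BMP target and feedback genes 1 passed below 0, 0 above 0 and 10 did not pass, with a median effect difference of -0.78. Id2, an inhibitor of helix-loop-helix factors, fell in both tissues, by 1.46 in vesicle and by 0.65 in ectoderm, and the difference of -0.81 did not pass (adjusted p = 0.083). Id1 and Id3, the classical direct targets, were outside the naming rule and are given for completeness. Id1 had an effect of -1.56 in vesicle and -1.51 in ectoderm, and Id3 -0.79 and -0.84; none of these passed, and the effect differences were -0.05 (95% interval -1.40 to 1.30) and 0.05 (95% interval -0.83 to 0.93). Of 15 BMP ligands, receptors and transducers Bmp4 passed and 14 did not. Smad1, a transducer of BMP receptors, had -0.75 (adjusted p = 0.079), and the ligand gene Gdf11 had 2.33 (adjusted p = 0.13). Gdf6 and Bmp7, ligand genes outside the rule, moved in both tissues: Gdf6 was at least 12.4-fold lower in KO vesicle and fell by 2.45 in KO ectoderm, and Bmp7 rose by 2.56 and 1.56. Their effect differences of -1.54 (95% interval -2.72 to -0.35, adjusted p = 0.23) and 1.00 (95% interval -0.23 to 2.24, adjusted p = 0.51) did not pass. A second Bmp7 probe did not pass in either tissue, at 0.09 and 0.30.

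Fgf15 and Dapl1 led the neural retina and eye field genes. Of 17 measured, 2 passed below 0, 1 above 0 and 14 did not pass, with a median effect difference of -0.30. Fgf15, a growth factor of retinal progenitors, read 6.10, 6.36 and 6.77 in KO vesicles, against 9.74, 9.66 and 9.64 in WT vesicles, while every ectoderm array read between 4.67 and 5.21. Its effect difference was -3.02 (SE 0.47, adjusted p = 0.0044). Dapl1, a gene of the early eye, behaved similarly, at 6.06 ± 0.50 in KO and 9.45 ± 0.20 in WT vesicle, against 6.05 ± 1.12 in KO and 5.33 ± 0.61 in WT ectoderm (SD, n = 3 each), an effect difference of -4.11 (SE 0.73, adjusted p = 0.010). Ptprz1, a receptor phosphatase of neural progenitors named after its values were seen, was at least 4.43-fold lower in KO vesicle and differed by -2.79 (adjusted p = 0.0010). Sox2, a neural and lens progenitor factor outside the rule, fell by 2.30 in vesicle and by 2.04 in ectoderm. KO vesicles read 7.93, 8.34 and 8.30 for Sox2, against 10.64, 10.41 and 10.42 in WT vesicles, and KO ectoderm read 8.23, 8.40 and 8.32, against 10.12, 10.48 and 10.48 in WT ectoderm. The Sox2 effect difference was -0.26 (95% interval -0.77 to 0.25, adjusted p = 0.72). A second Sox2 probe did not pass in either tissue, at -0.55 in vesicle and -1.16 in ectoderm.

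Of 15 pigment epithelium genes, 9 rose in KO vesicle and 6 in KO ectoderm, and 0 fell in either. For the effect difference 4 passed above 0, 1 below 0 and 10 did not pass. The median effect was 1.59 in vesicle and 0.44 in ectoderm. Tyrp1, a melanin synthesis enzyme, read 7.52, 7.25 and 7.53 in KO vesicles, against 5.03, 4.27 and 4.29 in WT vesicles. It was detected on 0 of 6 ectoderm arrays, and the effect difference was 2.91 (SE 0.39, adjusted p = 0.0012). Pmel, which forms the fibrils of the melanosome, read 10.41, 10.48 and 10.44 in KO vesicles, against 6.13, 6.56 and 6.05 in WT vesicles. In KO ectoderm Pmel rose too, to 5.67, 6.22 and 6.45, at least 2.56-fold above WT ectoderm, where it was below background. The effect difference of Pmel was 2.55 (SE 0.47, adjusted p = 0.013). Gja1, the gap junction protein connexin 43, passed with 0.72 (SE 0.08, adjusted p = 0.00051), and Stra6 passed as well. Over the fits that left out 1 array, 3 to 5 genes of this list passed, with 3 without KO optic vesicle replicate 2 or 3 or WT optic vesicle replicate 2. With the deposited values 2 passed.

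A second Tyrp1 probe did not pass, with a vesicle effect of 0.37 and an effect difference of 0.40, and a second Pmel probe rose by 2.50 in vesicle, with an effect difference of 1.62 that did not pass.

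The upstream sequence of Tyrp1 is shown because Tyrp1 had the highest effect difference of the pigment list: the 250 bases before a RefSeq transcript start at chr4:80833963-80834212, plus strand of GRCm38.p6. Capitals mark CATGTG, the core of the M box that pigment cell regulators are known to bind.
Tyrp1: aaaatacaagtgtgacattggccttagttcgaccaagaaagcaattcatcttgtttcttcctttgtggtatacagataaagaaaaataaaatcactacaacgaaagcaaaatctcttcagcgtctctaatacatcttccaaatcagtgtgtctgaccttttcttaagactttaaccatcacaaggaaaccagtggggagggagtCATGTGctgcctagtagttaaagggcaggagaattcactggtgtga
The motif begins 46 bases before the start. Searched on both strands (CATGTG or CACATG), it occurred in 4025 of 32851 mouse promoter windows of this length, 12.2%, so a match alone is common.

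Other pigment genes, named after their values were seen, rose in both tissues and did not pass for the effect difference by the probe that stood for the gene. Dct, a melanin enzyme, rose by 2.84 in vesicle and was at least 5.70-fold higher in KO ectoderm, with an effect difference of 0.09 (95% interval -1.15 to 1.32). A second Dct probe went the other way: it rose by 2.73 in vesicle, had an ectoderm effect of 0.24 that did not pass, and its effect difference of 2.49 passed (adjusted p = 0.0053), so whether Dct differed between the tissues depended on the probe. Rab38, which moves pigment enzymes, rose by 2.31 in vesicle and by 1.97 in ectoderm, with 0.35 (95% interval -0.70 to 1.39). Trpm1, a melanocyte and retinal channel, rose by 2.04 in vesicle and at least 2.80-fold in ectoderm, with 0.17 (95% interval -0.87 to 1.20). A second Rab38 probe had an ectoderm effect of 1.30 that did not pass, and neither of the other Trpm1 probes passed in either tissue. Otx2, a regulator of pigment epithelium, rose by 1.65 and by 2.25, with -0.61 (95% interval -1.21 to 0.00, adjusted p = 0.38). Its paralog Otx1 was the member below 0: it read 9.10 ± 0.34 in KO and 8.82 ± 0.49 in WT vesicle, against 10.25 ± 0.31 in KO and 8.21 ± 0.32 in WT ectoderm (SD, n = 3 each), an effect difference of -1.77 (SE 0.38, adjusted p = 0.033). The call for Otx1 held in 4 of the 12 fits that left out 1 array.

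Beside Ctsc, the highest effect differences among genes that rose in the vesicle were those of Rpp25, Lrtm1 and Postn. Rpp25, a ribonuclease P subunit, read 9.30, 9.93 and 10.06 in KO vesicles, against 5.75, 5.07 and 5.07 in WT vesicles. In ectoderm it was variable, at 10.48, 9.50 and 7.04 in KO, against 8.70, 8.96 and 10.35 in WT, so the effect difference of 4.80 had a wide error (SE 0.93, adjusted p = 0.017). Without KO optic vesicle replicate 3 or WT optic vesicle replicate 2 Rpp25 did not pass (adjusted p of up to 0.052). Lrtm1, a leucine-rich repeat membrane protein gene, read 9.10, 9.20 and 8.82 in KO vesicles, against 5.43, 5.18 and 4.80 in WT vesicles, was detected on 0 of 6 ectoderm arrays and differed by 3.83 (SE 0.47, adjusted p = 0.00069). Postn, the matrix protein periostin, read 8.23, 8.59 and 8.36 in KO vesicles, against 4.89, 4.89 and 5.03 in WT vesicles, and between 4.34 and 4.96 on all ectoderm arrays, an effect difference of 3.37 (SE 0.44, adjusted p = 0.0010).

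Crystallins were the list with the highest median effect difference of the 31, at 2.92 beside -0.04 over all genes. Of 10 measured crystallins, 6 passed above 0, 0 below 0 and 4 did not pass; 7 fell in KO ectoderm and 0 passed in vesicle. Cryge, a gamma crystallin, read 6.65, 8.28 and 6.35 in KO vesicles, against 7.43, 7.24 and 5.61 in WT vesicles, which overlapped. In ectoderm it read 4.75, 7.09 and 6.20 in KO, against 10.70, 10.60 and 10.54 in WT, an effect difference of 4.93 (SE 0.87, adjusted p = 0.0098). Crygd differed by 4.08 (SE 0.53, adjusted p = 0.0010), with 8.36, 8.67 and 8.43 in WT ectoderm and at most 5.43 on every other array. Crybb3, a beta crystallin, was detected on all 3 WT ectoderm arrays and on 1 of the other 9, and was at least 12.1-fold lower in KO ectoderm; its effect difference was 3.75 (SE 0.42, adjusted p = 0.00039). Crygc was at least 7.97-fold lower in KO ectoderm and differed by 3.01 (SE 0.51, adjusted p = 0.0080).

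The remaining crystallins lie outside the naming rule. Crygb passed with 2.83 (adjusted p = 0.033) and held in 2 of the 12 fits that left out 1 array. Cryba1 passed with 3.37 (adjusted p = 0.030) without passing in either tissue, at 6.72 ± 0.41 in KO and 4.71 ± 0.35 in WT vesicle, against 5.61 ± 1.14 in KO and 6.96 ± 0.34 in WT ectoderm (SD, n = 3 each); it held in 5 of the 12 fits. Cryab, a small heat shock protein of the lens, fell by 1.44 in ectoderm and stood at 2.04 for the effect difference (adjusted p = 0.060). Crygn, Cryba2 and Cryba4 stood at 2.14, 1.63 and 0.43 and did not pass. Over the fits that left out 1 array, 4 to 6 crystallins passed, and over the other alternatives 2 to 7, with 2 from the deposited values.

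Gamma crystallin genes are close copies of each other that lie in a cluster, and a probe may read several, so their separate calls are uncertain. The 250 bases before the RefSeq start of the 3 that passed by the naming rule are shown because the genes moved together; capitals mark the longest run of letters that all 3 share. All lie on the minus strand of GRCm38.p6, Crygc at chr1:65073533-65073782, Crygd at chr1:65063441-65063690 and Cryge at chr1:65051164-65051413.
Crygc: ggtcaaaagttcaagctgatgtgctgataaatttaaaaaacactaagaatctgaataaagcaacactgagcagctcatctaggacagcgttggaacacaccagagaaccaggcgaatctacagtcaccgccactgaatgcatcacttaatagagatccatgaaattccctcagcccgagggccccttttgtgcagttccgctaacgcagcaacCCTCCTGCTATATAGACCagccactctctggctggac
Crygd: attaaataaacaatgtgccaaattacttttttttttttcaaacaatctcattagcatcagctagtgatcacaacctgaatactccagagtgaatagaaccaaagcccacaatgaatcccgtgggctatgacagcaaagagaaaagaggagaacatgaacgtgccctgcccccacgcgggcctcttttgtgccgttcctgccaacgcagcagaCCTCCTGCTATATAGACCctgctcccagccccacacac
Cryge: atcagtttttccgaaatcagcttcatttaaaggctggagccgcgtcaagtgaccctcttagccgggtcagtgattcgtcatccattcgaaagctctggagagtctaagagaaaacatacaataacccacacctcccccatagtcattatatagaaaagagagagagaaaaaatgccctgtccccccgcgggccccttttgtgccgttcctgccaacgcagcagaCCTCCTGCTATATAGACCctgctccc
The shared run, CCTCCTGCTATATAGACC, is 18 bases long, contains a TATA element and begins 37, 38 and 26 bases before the start of Crygc, Crygd and Cryge. Searched on both strands, it occurred in 4 of 32851 promoter windows of this length, those of these genes and of Crygf. Aligned over the whole window, identity was 59.6% between Crygc and Crygd, 58.4% between Crygc and Cryge and 63.2% between Crygd and Cryge.

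Of 21 lens placode genes, 10 fell and 5 rose in KO ectoderm, against 3 that fell and 1 that rose in KO vesicle. For the effect difference 8 passed above 0, 1 below 0 and 12 did not pass, with a median effect of -0.01 in vesicle and -0.73 in ectoderm. Prox1, a homeobox factor that drives lens fibre formation, read 5.19, 5.38 and 5.56 in KO ectoderm, against 10.04, 10.34 and 9.82 in WT ectoderm. In vesicle it read 6.18, 5.65 and 6.95 in KO, against 7.65, 7.55 and 7.18 in WT, an effect of -1.20 that did not pass. The effect difference of Prox1 was 3.49 (SE 0.49, adjusted p = 0.0018), with 2.83 within slide 1 and 3.63 within slide 2. Cdh2, the cadherin of the placode and of neural tissue, read 7.66, 7.69 and 7.61 in KO vesicles, against 7.18, 7.43 and 7.73 in WT vesicles, and 4.45, 5.01 and 4.53 in KO ectoderm, against 8.50, 7.90 and 7.59 in WT ectoderm. Its effect difference was 3.54 (SE 0.49, adjusted p = 0.0015). Pitx3, a lens homeobox gene, was detected on the WT ectoderm arrays and on 0 of the other 9 arrays, was at least 6.68-fold lower in KO ectoderm and differed by 3.09 (SE 0.34, adjusted p = 0.00032).

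Pax6, which both tissues need to form the eye, fell in the ectoderm, and its vesicle effect of 0.07 did not pass. KO vesicles read 10.94, 11.13 and 11.19, against 11.07, 10.99 and 10.98 in WT vesicles, and KO ectoderm read 10.64, 10.52 and 10.57, against 11.49, 11.74 and 11.43 in WT ectoderm. The Pax6 effect difference was 1.05 (SE 0.15, adjusted p = 0.0015), and a second Pax6 probe gave 0.87 (adjusted p = 0.026). Foxe3 and Maf, lens transcription factors named after their values were seen, differed by 1.86 (adjusted p = 0.0049) and 3.04 (adjusted p = 0.034), with Foxe3 at least 2.82-fold lower in KO ectoderm. The call for Maf held in 4 of the 12 fits that left out 1 array. Sox11, a progenitor factor, was the member below 0, at -0.79 (SE 0.14, adjusted p = 0.010). Mab21l1 and Sfrp2, also outside the rule, fell in both tissues, by 1.25 and 0.92 in vesicle and by 1.36 and 0.98 in ectoderm; their effect differences were 0.11 (95% interval -0.38 to 0.61) and 0.07 (95% interval -0.43 to 0.56).

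**Figure D3:**
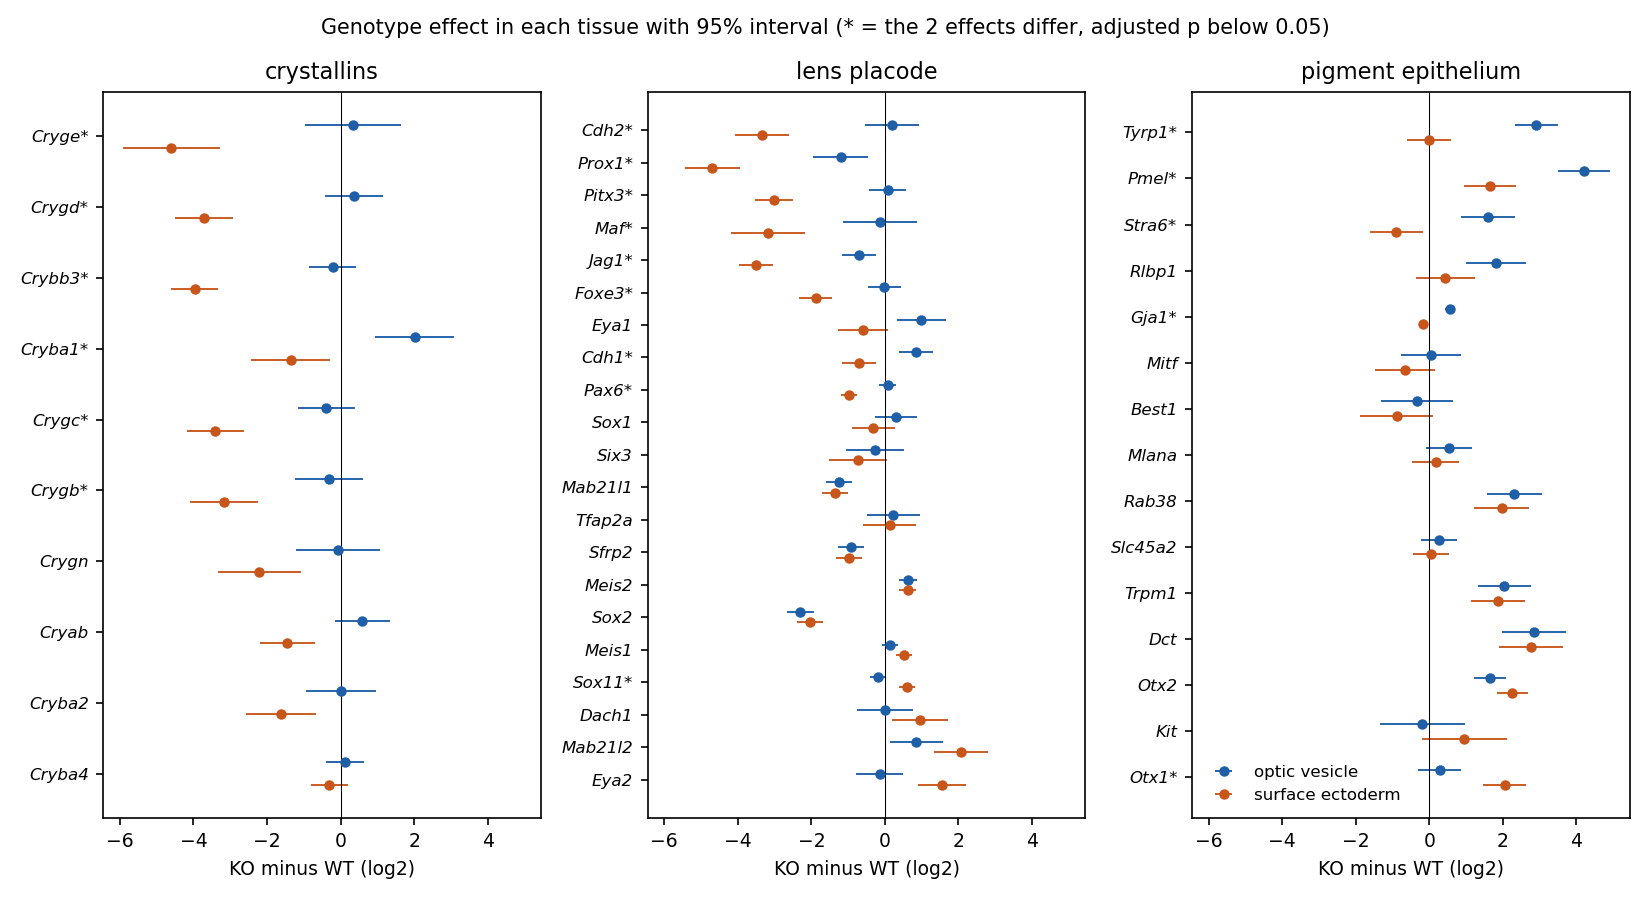
Genotype effect (KO minus WT, log2) with its 95% interval in optic vesicle (blue) and surface ectoderm (orange) for the measured crystallins, lens placode genes and pigment epithelium genes; a star marks genes whose effect difference passed. Crystallin effects lie near 0 in the vesicle apart from Cryba1 and below 0 in the ectoderm, while Tyrp1, Pmel and Stra6 lie furthest right in the vesicle relative to the ectoderm among pigment genes.

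Of 13 FGF and ERK response genes, 5 fell in KO vesicle and 7 in KO ectoderm, and 0 rose in either. For the effect difference 2 passed above 0, 0 below 0 and 11 did not pass; the median effect was -0.67 in vesicle and -1.69 in ectoderm. Etv1, an ETS factor induced by FGF signalling, read 5.95, 5.72 and 6.59 in KO vesicles, against 7.70, 7.88 and 8.22 in WT vesicles. In ectoderm it read 4.87, 5.64 and 5.83 in KO, against 10.10, 10.03 and 9.96 in WT, an effect difference of 2.74 (SE 0.48, adjusted p = 0.0095) that passed on 2 further Etv1 probes at 2.87 and 2.79. Those probes fell in ectoderm, by 3.05 and 3.03, and did not pass in vesicle, at -0.18 and -0.25. Egr1, an immediate early factor and the only one of 12 immediate early genes that passed, fell by 2.91 in ectoderm and differed by 2.97 (adjusted p = 0.034); it held in 4 of the 12 fits that left out 1 array. Dusp6, an ERK phosphatase, fell by 0.65 in vesicle and by 1.45 in ectoderm, and 0.80 did not pass (adjusted p = 0.060). Spry2, a feedback inhibitor outside the rule, fell by 2.24 in vesicle and by 2.35 in ectoderm, with an effect difference of 0.11 (95% interval -1.07 to 1.30). Jag1, a Notch ligand of the placode, was the only one of 11 Notch genes that passed: it read 8.63 ± 0.25 in KO and 9.33 ± 0.03 in WT vesicle, against 6.63 ± 0.38 in KO and 10.13 ± 0.04 in WT ectoderm (SD, n = 3 each), an effect difference of 2.80 (SE 0.30, adjusted p = 0.00030).

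Several of the largest effect differences above 0 were genes of the WT ectoderm outside the lens lists. Spon2, a secreted matrix protein, had the highest value of all, 5.10 (SE 0.86, adjusted p = 0.0074). It read 5.57, 7.01 and 6.46 in KO ectoderm, against 10.87, 10.80 and 10.74 in WT ectoderm, while the vesicle read 4.44, 4.62 and 7.17 in KO, against 4.36, 4.88 and 5.08 in WT. Ntrk2, the receptor of brain-derived neurotrophic factor, read 4.66 ± 0.29 in KO and 9.75 ± 0.32 in WT ectoderm (SD, n = 3 each), and its effect difference was 4.00 (SE 0.46, adjusted p = 0.00046). Has2, which makes hyaluronan, read 5.90, 5.90 and 5.95 in KO ectoderm, against 9.88, 10.00 and 9.99 in WT ectoderm, a 16.4-fold fall; the vesicle groups overlapped, and the effect difference was 3.84 (SE 0.41, adjusted p = 0.00030). Tnc, the matrix protein tenascin C, differed by 2.99 (SE 0.50, adjusted p = 0.0072), and 3 of its 6 other probes passed in the same direction. Pdgfra, a growth factor receptor often used as a mesenchyme marker, read 7.63, 7.85 and 7.73 in KO ectoderm, against 10.21, 10.23 and 10.26 in WT ectoderm, and differed by 3.31 (SE 0.46, adjusted p = 0.0015).

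Others of that kind rested on fewer fits. Csn3, a casein, differed by 3.48 (adjusted p = 0.015), and of its other probes 1 differed by 3.18 (adjusted p = 0.0019) and 1 stood at 0.33 without passing (adjusted p = 0.76). Without WT optic vesicle replicate 2 the adjusted p of Csn3 was 0.053. Tgm2, a transglutaminase, and P2ry6, a nucleotide receptor, differed by 3.95 (adjusted p = 0.037) and 3.61 (adjusted p = 0.034) and held in 3 and 4 of the 12 fits that left out 1 array. Atp1b3, a sodium pump subunit, was among the most precise: it fell by 1.30 in ectoderm, was at -0.09 in vesicle and differed by 1.21 (SE 0.13, adjusted p = 0.00030).

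Wnt6, Trim29 and several epidermal genes rose in KO ectoderm and were at or near background in the vesicle. Wnt6, a ligand of the surface ectoderm, averaged 8.41 ± 0.35 in KO ectoderm, against 4.58 ± 0.08 in WT ectoderm (SD, n = 3 each), where it was below background. It was below background on all vesicle arrays as well, and the effect difference was -3.70 (SE 0.40, adjusted p = 0.00030), with -3.81 on a second Wnt6 probe and -1.54 on another that did not pass (adjusted p = 0.059). Trim29, a gene of stratified epithelia, read 9.51, 9.99 and 9.99 in KO ectoderm, against 4.37, 4.95 and 6.53 in WT ectoderm, and differed by -4.19 (SE 0.71, adjusted p = 0.0081); a second Trim29 probe passed at -2.89. Prss35, Lypd2 and Spo11, which are in none of the lists, had the same pattern. Their effect differences were -3.70, -3.47 and -3.13 and their vesicle effects -0.16, 0.00 and 0.12. A second Spo11 probe stood at -0.03 and did not pass, with an ectoderm effect of 0.11. Tuft1, Ndrg2 and Plk2 were also among the lowest, at -3.51 (adjusted p = 0.034), -3.32 (adjusted p = 0.0044) and -3.09 (adjusted p = 0.011), and Tuft1 held in 4 of the 12 fits that left out 1 array. Named after their values were seen, the epidermal master regulator Trp63 and the keratin Krt7 differed by -2.55 (adjusted p = 0.023) and -2.60 (adjusted p = 0.017), the integrin adaptor Fermt1 by -2.94 (adjusted p = 0.0012) and the gap junction gene Gjb2 by -2.86 (adjusted p = 0.046). Trp63 held in 6 and Gjb2 in 1 of the 12 fits that left out 1 array, and Krt7 lost its call without WT optic vesicle replicate 2 (adjusted p = 0.054).

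As a list, 18 surface ectoderm and epidermal genes were split: 2 passed above 0, 2 below 0 (Wnt6 and Trp63) and 14 did not pass, with a median of 0.21. The pair above 0 were epithelial genes of a different kind. Krt18, a keratin of simple epithelia, rose by 2.04 in vesicle, at 8.45 ± 0.28 in KO and 6.41 ± 0.10 in WT, against 9.97 ± 0.07 in KO and 9.46 ± 0.13 in WT ectoderm (SD, n = 3 each), and differed by 1.53 (SE 0.28, adjusted p = 0.013). Cdh1, the epithelial cadherin, differed by 1.54 (SE 0.30, adjusted p = 0.019) without passing in either tissue, and lost its call without WT optic vesicle replicate 1 or 2 or WT surface ectoderm replicate 1 (adjusted p of up to 0.057). Perp, a desmosome gene, rose by 3.27 in ectoderm, and its effect difference of -2.28 did not pass (adjusted p = 0.23).

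Markers of mesenchyme also stood on both sides. Of 12 mesenchyme and neural crest genes, 2 passed above 0 (Postn and Pdgfra), 2 below 0 and 8 did not pass; the median effect was 0.44 in vesicle and 1.31 in ectoderm. Twist1, a mesenchymal transcription factor, read 7.80, 8.08 and 7.85 in KO ectoderm, against 5.05, 5.12 and 5.17 in WT ectoderm, and differed by -2.95 (SE 0.47, adjusted p = 0.0045). Col3a1, a fibrillar collagen, read 9.54, 9.14 and 9.25 in KO ectoderm, against 5.24, 6.84 and 4.48 in WT ectoderm, and differed by -3.48 (SE 0.71, adjusted p = 0.025), a call that held in 5 of the 12 fits that left out 1 array. Cdh11, a mesenchymal cadherin that the vesicle also carried, read 8.91 ± 0.15 in KO and 10.07 ± 0.28 in WT vesicle, against 7.51 ± 0.48 in KO and 5.03 ± 0.38 in WT ectoderm (SD, n = 3 each), an effect difference of -3.64 (SE 0.42, adjusted p = 0.00050). Alx4, outside the rule, rose by 2.97 in vesicle and by 3.67 in ectoderm, with -0.70 (95% interval -2.09 to 0.69). A second Alx4 probe did not pass in either tissue, at 0.12 in vesicle and 1.60 in ectoderm.

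Markers of vessels and blood moved with the genotype as well, and their part in the results above was not tested. By limma, 1555 of all 11924 genes had an unadjusted p below 0.05 for the effect difference. The mean level of 9 endothelial genes was 6.03 to 6.22 in KO and 4.65 to 5.03 in WT ectoderm, and 5.37 to 5.52 in KO and 5.12 to 5.22 in WT vesicle. By limma 0 of the 9 passed for the effect difference, 4 had an unadjusted p below 0.05, and the median was -1.14; Pecam1, the endothelial adhesion molecule, stood at -1.32 (adjusted p = 0.058), with 4.54 ± 0.20 in KO and 4.50 ± 0.14 in WT vesicle, against 5.86 ± 0.24 in KO and 4.49 ± 0.17 in WT ectoderm (SD, n = 3 each). The mean level of 8 erythroid genes was 7.67 to 7.87 in KO and 6.57 to 6.94 in WT vesicle, and 8.998 to 9.26 in KO and 8.45 to 8.83 in WT ectoderm. Of these 2 passed above 0, the embryonic globins Hbb-y at 1.08 (SE 0.14, adjusted p = 0.00094) and Hbb-bh1 at 1.05 (SE 0.13, adjusted p = 0.00093), which are close copies that a probe may share. None of the 6 platelet and 8 macrophage genes passed by limma for the effect difference (1 of each list had an unadjusted p below 0.05). Within KO ectoderm 4 of 9 endothelial, 1 of 8 erythroid and 3 of 6 platelet genes rose and passed, and 1 platelet gene fell. Within KO vesicle 4 erythroid genes and 1 platelet gene rose, and 0 endothelial genes passed. No macrophage gene passed in either tissue. Over all 11924 genes 593 passed in ectoderm and 215 in vesicle. The 6 platelet genes averaged 7.19 to 8.13 in KO and 6.17 to 6.36 in WT ectoderm. The 8 macrophage genes averaged 4.60 to 4.99 in KO and 5.03 to 5.44 in WT ectoderm.

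**Figure D4:**
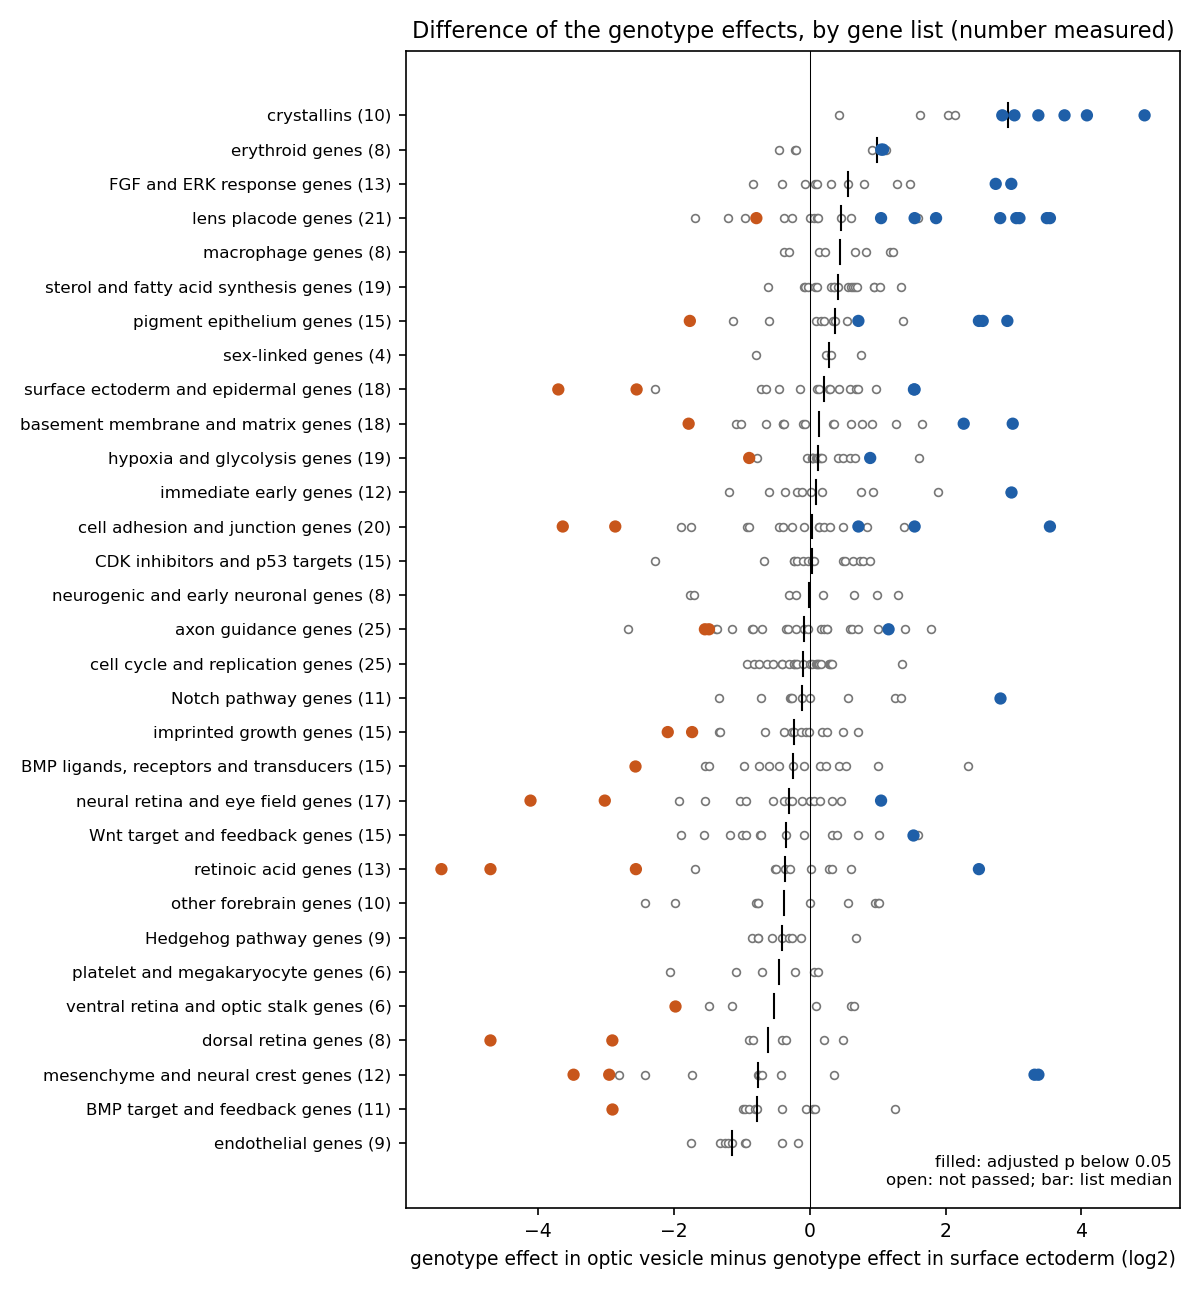
Effect difference (optic vesicle minus surface ectoderm, log2) of every measured member of the 31 gene lists, ordered by list median (bars); filled points passed, blue above 0 and orange below 0. Crystallins have the highest median, at 2.92, and endothelial genes the lowest, at -1.14, with no endothelial member filled.

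Adhesion, matrix and guidance genes passed in both directions within each list. Of 20 adhesion genes, 3 passed above 0 (Cdh1, Cdh2 and Gja1), 2 below 0 (Cdh11 and Gjb2) and 15 did not pass, with a median of 0.03. The protocadherin Pcdh17 also passed below 0, at -3.27 (adjusted p = 0.040), a call that held in 2 of the 12 fits that left out 1 array. Of 18 matrix genes Lamb1 and Tnc passed above 0, and Col18a1, the basement membrane collagen that gives endostatin, passed below 0. Col18a1 read 10.28 ± 0.23 in KO and 10.25 ± 0.32 in WT vesicle, against 11.32 ± 0.16 in KO and 9.51 ± 0.21 in WT ectoderm (SD, n = 3 each), an effect difference of -1.78 (SE 0.25, adjusted p = 0.0015). Of 25 axon guidance genes 3 passed, each of which held in 2 or 3 of the 12 such fits: the repellent Sema3a at -1.54 (adjusted p = 0.032), its receptor Nrp1 at -1.48 (adjusted p = 0.038) and the teneurin Tenm3 at 1.16 (adjusted p = 0.035). Sema3a fell by 1.91 in vesicle, and a second probe of it stood at 0.23, on the other side of 0.

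A pair of glucose transporters passed in opposite directions. Slc2a1 fell by 0.62 in ectoderm and stood at 0.27 in vesicle, an effect difference of 0.89 (SE 0.14, adjusted p = 0.0043). Slc2a3 rose in both tissues, by 1.11 in vesicle and by 2.01 in ectoderm, an effect difference of -0.89 (SE 0.20, adjusted p = 0.035) that held in 2 of the 12 fits that left out 1 array. The other 17 of 19 hypoxia and glycolysis genes did not pass. Among 15 imprinted growth genes, Peg10, a retrotransposon-derived gene, and Dlk1, a Notch-family ligand that restrains differentiation, passed below 0, at -2.09 (adjusted p = 0.017) and -1.73 (adjusted p = 0.023). Peg10 lost its call without WT optic vesicle replicate 2 (adjusted p = 0.059), and Dlk1 held in 7 of the 12 fits. Of 15 Wnt target and feedback genes the secreted inhibitor Sfrp1 passed above 0, at 1.53 (adjusted p = 0.026, 4 of the 12 fits), and Axin2, a general feedback target, stood at -1.89 without passing (adjusted p = 0.11).

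In 7 genes the effect passed in both tissues in the same direction and still differed between them. Col13a1, a transmembrane collagen, read 6.35, 7.96 and 7.28 in KO vesicles, against 9.16, 9.03 and 8.85 in WT vesicles, and 4.41, 5.17 and 5.14 in KO ectoderm, against 10.40, 10.62 and 10.59 in WT ectoderm. It fell by 1.81 in vesicle and by 5.63 in ectoderm, an effect difference of 3.82 (SE 0.50, adjusted p = 0.0012). A dimmer second Col13a1 probe fell by 1.53 in ectoderm and had a vesicle effect of 0.28 that did not pass. Its effect difference of 1.81 did not pass (adjusted p = 0.18), so the fall of Col13a1 in vesicle rests on 1 probe. Slc38a8, an amino acid transporter of the eye, rose by 1.92 in vesicle and by 4.73 in ectoderm, a difference of -2.82 (SE 0.30, adjusted p = 0.00030). KO ectoderm, at 9.94, 10.25 and 10.57 for Slc38a8, reached the level of WT vesicle, at 10.20, 10.15 and 10.03. Fgfr2, an FGF receptor, and Igfbp5, which binds insulin-like growth factors, rose more in vesicle, by 1.58 and 1.50, than in ectoderm, by 0.51 and 0.50; the differences were 1.06 (SE 0.17, adjusted p = 0.0057) and 1.00 (SE 0.17, adjusted p = 0.0068). Pmel, Etv1 and Slc2a3 complete the 7.

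At the other end, 8 genes were taken for the smallest effect difference among those that passed in both tissues with the same sign, so their small differences are a description. Meis2, a homeobox factor of eye and lens, rose by 0.62 in each tissue, with a difference of 0.01 (95% interval -0.33 to 0.34). Zfp503, a zinc finger factor, rose by 1.49 in vesicle and by 1.44 in ectoderm (difference 0.05, 95% interval -0.61 to 0.71), and Tmem132c by 2.94 and 2.89 (difference 0.06, 95% interval -1.37 to 1.48). Zbtb18, a neural repressor, fell by 0.71 in vesicle and by 0.75 in ectoderm (difference 0.04, 95% interval -0.37 to 0.44). Itgb8, an integrin that activates TGF-beta, fell by 2.33 and 2.37, with the wide interval of -1.35 to 1.43 for the difference. Pawr, a cell death regulator, fell by 1.45 in each tissue (95% interval of the difference -0.86 to 0.86). Rps2, a ribosomal protein gene, rose by 0.25 and 0.24, and Ino80c, a chromatin remodeller subunit, fell by 0.52 and 0.59. For Rps2 the interval of the difference was -0.16 to 0.18, the narrowest of the 8.

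Set out the other way, the same contrast asks how far vesicle and ectoderm differ in KO and in WT. The median size of the difference between the tissues over the 168 genes was 0.96 in KO and 1.29 in WT. It was smaller in KO for 103 of the 168 genes, 61.3%, and for 51.1% of all genes tested. Of the 96 genes above 0, 87 were brighter in ectoderm than in vesicle in WT; of the 72 below 0, 45 were brighter in vesicle in WT. The sign of the tissue difference turned between the genotypes in 84 of the 168 genes. The effect difference equals the tissue difference in KO minus that in WT. These splits and turns thus follow in part from how the 168 genes were chosen, and they are a description. Cdh11, brighter in vesicle in WT by 5.04, was brighter there by 1.40 in KO, and Pdgfra, brighter in ectoderm in WT by 5.36, was brighter there by 2.05 in KO. Tissue differences that were larger in KO included those of Tyrp1, Lrtm1, Wnt6, Trim29 and Krt7.

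**Figure D5:**
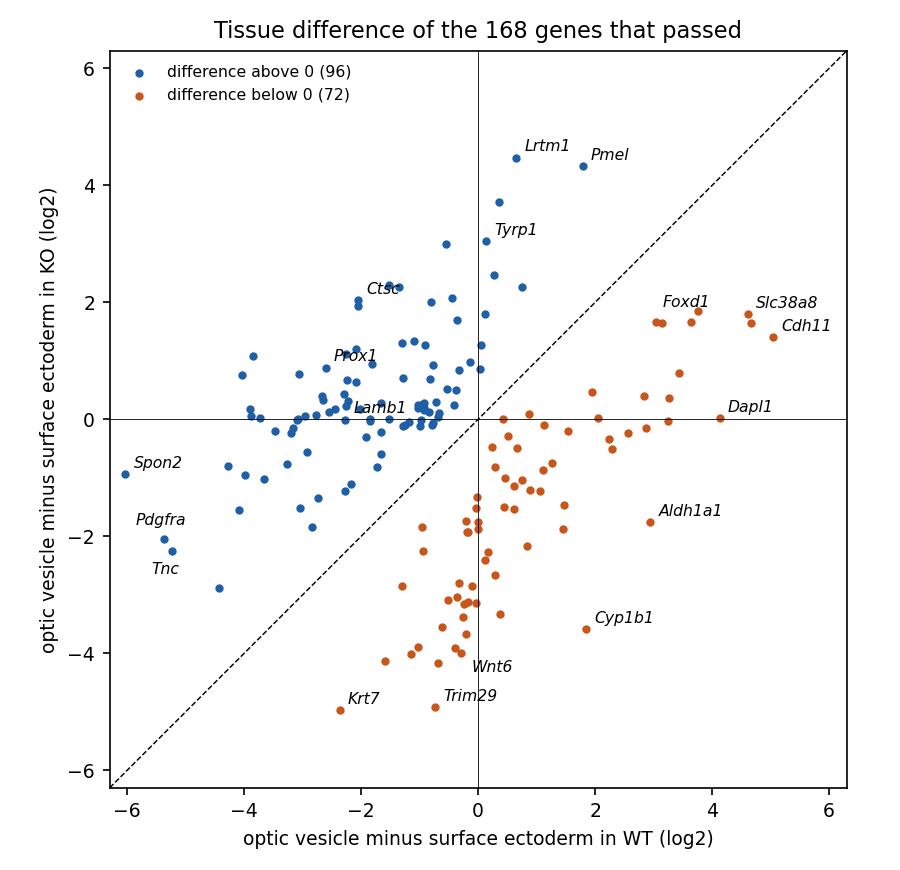
Optic vesicle minus surface ectoderm (log2 intensity) in WT on the horizontal axis and in KO on the vertical axis for the 168 genes that passed; on the dashed line the genotypes are equal. Genes near the horizontal axis, such as Dapl1, separated the tissues in WT and not in KO, while genes near the vertical axis, such as Tyrp1 above and Wnt6 below, separated them in KO alone.

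Beside the sex-linked genes, 9 lists had 0 members that passed by limma for the effect difference. Over all 11924 genes tested, 1555 had an unadjusted p below 0.05 by limma, so several of the shares below are close to that of all genes. The number with an unadjusted p below 0.05 was 4 of 9 endothelial, 1 of 8 macrophage, 1 of 6 platelet, 3 of 10 other forebrain, 1 of 9 Hedgehog, 4 of 25 cell cycle, 3 of 15 CDK inhibitor and p53, 5 of 19 sterol and fatty acid synthesis and 4 of 8 neurogenic genes. Emx2, a forebrain homeobox gene, was at least 4.33-fold higher in KO ectoderm and stood at -2.43 (adjusted p = 0.060). Insig1, a sensor of sterol synthesis, fell by 1.62 in ectoderm and stood at 1.04 (adjusted p = 0.15), and Syt1, a synaptic vesicle gene, fell by 2.79 in vesicle and stood at -1.77 (adjusted p = 0.21). None of the 4 measured sex-linked genes passed by limma, with 0 at an unadjusted p below 0.05. Xist, which silences the female X, read between 8.78 and 9.99, and Eif2s3y, a Y-linked gene, between 7.48 and 8.39. Every array thus carried both, as in RNA pooled from embryos of both sexes. Whether each probe reads its own gene alone was not tested. Among the 168 genes, 85 had at least 1 other kept probe. At least 1 such probe had the same sign in 79 and passed in the same direction in 18. Another probe passed in the opposite direction in 0. Of the probes that did not pass, some stood far closer to 0 than the probe used. These included probes of Cdh1 at 0.02, Cdh2 at 0.44, Crybb3 at 0.28, Ptprz1 at -0.32, Peg10 at -0.39 and Sfrp1 at 0.05.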

How the data were processed

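RNA of laser-dissected optic vesicle and surface ectoderm from Bmp4 KO and WT embryos was measured on 12 Illumina bead arrays, 3 per group. The deposited table holds raw probe intensity, not background-subtracted or normalised, with a detection p-value and the number of beads behind each value, per the file headers. GenomeStudio is named in the submitters' processing notes, and its options are not given in the sources used here. The authors' deposited processed intensity values, linear with unstated background correction and column medians of 9.40 to 9.42, served as an alternative.

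Intensities were background-corrected and quantile-normalised with neqc (offset 16, limma 3.58.1, R 4.3.3). Of 45281 probes, 24978 with a detection p below 0.05 on at least 3 arrays were kept. Of all probes 34885 had 1 gene symbol in GEO's platform annotation, 18 had several and 10378 had none; only the first were named. The probe with the highest mean stood for its gene, leaving 11924 genes. One linear model over the 4 groups (8 residual degrees of freedom) with a trended empirical Bayes variance gave the effect in each tissue and their difference, with Benjamini-Hochberg adjustment. The scripts were tested on simulated data.

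Members and lists were chosen with earlier results of these data known. Genes are named by rule: Bmp4, the 15 highest and 15 lowest effect differences that passed, the 10 lowest p-values, up to 10 that passed in both tissues with opposite signs, up to 5 with the same sign, 8 shared genes with the smallest difference, and the 3 lowest p-values of each list. Replicate numbers were not used to pair the arrays in the main fit. Residual correlations between same or different numbers across tissues ran from -0.04 to 0.03. Residuals from a mean of 3 arrays depend on each other, so these values cannot show whether the arrays were paired. Alternatives varied the background correction, scaling, probe filter, probe choice, blocking, array weights, variance trend and each array. The number of arrays limits the precision. Promoter sequences are from RefSeq, GRCm38.p6.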

Additional observations from a re-analysis of the deposited data

Results flagged for a closer look

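The genotype effect differed between optic vesicle and surface ectoderm, by limma's interaction term over all 12 arrays, in 168 of 11924 genes. Each gene named in the text whose difference passed is listed with its effect difference, optic vesicle minus surface ectoderm on the log2 scale. No group had enough arrays for a search for outlying samples.

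The highest values were those of Spon2 at 5.10, Cryge at 4.93, Rpp25 at 4.80, Ctsc at 4.08, Crygd at 4.08, Ntrk2 at 4.00, Tgm2 at 3.95, Has2 at 3.84, Lrtm1 at 3.83 and Col13a1 at 3.82. Above 0 there followed Crybb3 at 3.75, P2ry6 at 3.61, Cdh2 at 3.54, Prox1 at 3.49, Csn3 at 3.48, Postn at 3.37, Cryba1 at 3.37, Pdgfra at 3.31, Pitx3 at 3.09 and Maf at 3.04. Further positive values were those of Crygc at 3.01, Tnc at 2.99, Egr1 at 2.97, Tyrp1 at 2.91, Crygb at 2.83, Jag1 at 2.80, Etv1 at 2.74, Pmel at 2.55, Stra6 at 2.49 and Lamb1 at 2.27. Next above 0 stood Foxe3 at 1.86, Cdh1 at 1.54, Krt18 at 1.53, Sfrp1 at 1.53, Atp1b3 at 1.21, Tenm3 at 1.16, Hbb-y at 1.08, Fgfr2 at 1.06, Hbb-bh1 at 1.05 and Pax6 at 1.05. The smallest positive values were those of Igfbp5 at 1.00, Slc2a1 at 0.89 and Gja1 at 0.72.

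The lowest values were those of Cyp1b1 at -5.42, Aldh1a1 at -4.70, Trim29 at -4.19, Dapl1 at -4.11, Prss35 at -3.70, Wnt6 at -3.70, Cdh11 at -3.64, Tuft1 at -3.51, Col3a1 at -3.48 and Lypd2 at -3.47. Below 0 there followed Ndrg2 at -3.32, Pcdh17 at -3.27, Spo11 at -3.13, Plk2 at -3.09, Fgf15 at -3.02, Aldh1a7 at -2.99, Twist1 at -2.95, Fermt1 at -2.94, Tbx3 at -2.91 and Gjb2 at -2.86. Further negative values were those of Slc38a8 at -2.82, Ptprz1 at -2.79, Krt7 at -2.60, Bmp4 at -2.57, Crabp1 at -2.56, Trp63 at -2.55, Peg10 at -2.09, Foxd1 at -1.98, Col18a1 at -1.78 and Otx1 at -1.77. Nearest to 0 from below stood Dlk1 at -1.73, Sema3a at -1.54, Nrp1 at -1.48, Ckb at -1.47, Slc2a3 at -0.89 and Sox11 at -0.79.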

How the results depend on the processing

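All 168 genes kept the sign of their effect difference in every alternative with the same probes and in every fit without 1 array. With the mean of all kept probes 167 did. Because the 168 were chosen on these same arrays, kept signs were likely and are no independent support. The number that passed was 95 with median centring (50 above 0 and 45 below), 98 with the deposited values (62 and 36) and 111 with no detection filter (46 below 0), where 19057 genes were tested. Of the 168 genes, 93, 84 and 109 passed again in these. The replicate block gave 89 genes (52 and 37), 88 of them among the 168. It treats a number as the same source of a genotype across tissues. Every array carried both Xist and Eif2s3y, so that source may be a pool and not 1 embryo. Whether the numbers pair the arrays at all is not known, so the drop under this block cannot be read either way. Within slide 1 limma passed 0 genes (0 above and 0 below 0, with 767 at an unadjusted p below 0.05), and within slide 2 it passed 7 (1 and 6). Leaving out 1 array gave 94 to 163 genes, 55 to 89 above 0 and 39 to 79 below. In optic vesicle alone the number that passed was 128 with median centring, 412 with array weights, 0 within slide 1, 65 within slide 2 and 117 to 227 without 1 array. In surface ectoderm alone it was 313, 339, 19, 115 and 376 to 534 in the same order. Slide 1 held 1 KO and 1 WT vesicle array, and slide 2 held 1 KO and 1 WT ectoderm array. The vesicle count within slide 1 and the ectoderm count within slide 2 thus compare 1 array with 1 array. Each within-slide effect difference rests on such a comparison in part. A low count within a slide therefore cannot show that effects were absent. The cause of the other changes in count was not tested. Other settings left the total of 168 within 1.5 times, from 151 to 192. Bmp4 did not pass with the replicate block. Counts of genes that passed also dropped within lists. With the deposited values crystallins had 2 in place of 6, pigment epithelium 2 in place of 5 and mesenchyme and neural crest 0 in place of 4. With the replicate block pigment epithelium had 2, surface ectoderm and epidermal genes 1 in place of 4, retinoic acid genes 2 in place of 4 and axon guidance 0 in place of 3. Median centring left axon guidance at 0. Over the fits that left out 1 array axon guidance had 0 to 4, and surface ectoderm and epidermal genes 2 to 5, with 2 without WT optic vesicle replicate 1 or 2. Cell adhesion and junction genes had 3 in place of 5 without either of those arrays, with median centring, with the replicate block and with no variance trend.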
